A study of Mus musculus with 8 samples.

Results

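The cytosolic ribosomal protein genes encode the proteins of the ribosome that works in the cytoplasm, with Rps genes for the small subunit and Rpl genes for the large subunit. They were taken by gene symbol: Rps or Rpl followed by a number and, where present, a letter or a second digit, together with Rplp0, Rplp1, Rplp2 and Rpsa, and without the Rps6k kinases. The rule found 63 genes on 81 probes, 24 of the small and 39 of the large subunit, among 16593 named genes on 25697 probes. Of these, 57 genes were bright enough to be tested, among 10184 genes tested in all. The rule uses gene symbols and no measured value, but it was chosen with earlier results of these data known.

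The study asked what epithelial Indian hedgehog (Ihh), a secreted signal that the colonic epithelium sends to the cells beneath it, does in the adult colon. Whole colons of 4 knockout mice (VillinCreERT2, Ihh fl/fl) were set against whole colons of 4 wildtype mice (VillinCreERT2, Ihh+/+), 1 Illumina beadchip array per mouse. All 8 mice were C57BL/6, carried the tamoxifen-activated recombinase under the promoter of villin, which is active in intestinal epithelial cells, and were injected intraperitoneally with 1 mg of tamoxifen on 5 days in a row. Colons were taken at day 7, counted from the start of induction. The recombinase and tamoxifen are thus shared by both genotypes, and deletion is directed to the epithelium while the RNA came from the whole organ wall. The ages of the mice are not given in the sources used here, and the p-values below measure the spread between these 8 colons.

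Mean signal per array was 902 to 1258 intensity units in the knockout and 931 to 1185 in the wildtype colons, and 14465 to 14762 against 14720 to 15040 probes were detected. The number of arrays, not a read depth, limits the precision. Ihh itself measured 9.56, 9.03, 9.28 and 9.50 on the log2 intensity scale in knockout colons, against 10.47, 10.50, 10.42 and 10.17 in wildtype colons. The groups did not overlap, and the change was -1.05 (SE 0.149, adjusted p = 0.130, limma). Cdh1, the adhesion protein of epithelia, was detected in all 8 colons and differed by -0.04. It shows that epithelium was present and does not bear on the rest of the wall. The colons varied in skeletal muscle transcripts, given with Rpl3l below, and in transcripts of skin and stratified epithelium, whose mean deviation ran from -2.64 to 1.30 in knockout and from -2.94 to 2.41 in wildtype colons. The knockout group held 3 male and the wildtype group 1 male by sex-linked transcripts.

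Ribosomes translate messenger RNA: the small subunit decodes it and the large subunit joins the amino acids. Ribosomal proteins are made in large amounts by nearly all cells, since each ribosome needs 1 copy of most of them, and growing and dividing cells such as those of intestinal crypts need many ribosomes. Messages of vertebrate ribosomal proteins typically begin with a C followed by a run of pyrimidines, the 5′ terminal oligopyrimidine motif, through which growth signals acting on mTOR control their translation. That control acts on the use of the message rather than on its amount, which is what an array measures.

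The annotated start sites of the members differ in whether they hold this run close by. The starts used in the colon were not measured, so a start without a run does not show that the message lacks one. Below are RefSeq sequences on GRCm38.p6, 5′ to 3′ on the gene's strand, from 45 bases before to 25 bases after the annotated start, chosen among members that the results below turn on, with and without a run. Capitals mark a run of at least 7 letters that begins with C and holds only C and T, with its first letter within 10 bases of the start, or the motif CCGGAAG, which ETS factors bind and which reads as CTTCCGG on the other strand. The windows are Rpl35 at chr2:39005107-39005176 on the minus strand, Rpl13a at chr7:45128721-45128790 (minus), Rps6 at chr4:86857343-86857412 (minus), Rpl38 at chr11:114668535-114668604 (plus), Rps27 at chr3:90213624-90213693 (minus), Rps27l at chr9:66946041-66946110 (plus), Rpl22l1 at chr3:28805463-28805532 (plus), Rpl22 at chr4:152324391-152324460 (plus), Rpl23 at chr11:97782415-97782484 (minus), Rpl24 at chr16:55966230-55966299 (plus), Rpl9 at chr5:65391407-65391476 (minus) and Rpl3l at chr17:24727781-24727850 (plus).
Rpl35: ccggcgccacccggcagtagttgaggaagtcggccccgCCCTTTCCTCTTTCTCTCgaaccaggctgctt
Rpl13a: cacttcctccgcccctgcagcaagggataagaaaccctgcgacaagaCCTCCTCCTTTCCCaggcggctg
Rps6: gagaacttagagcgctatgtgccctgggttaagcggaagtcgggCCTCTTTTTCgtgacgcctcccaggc
Rpl38: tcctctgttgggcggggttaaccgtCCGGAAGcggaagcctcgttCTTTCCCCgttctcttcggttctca
Rps27: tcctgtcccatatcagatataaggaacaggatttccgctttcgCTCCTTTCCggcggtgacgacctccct
Rps27l: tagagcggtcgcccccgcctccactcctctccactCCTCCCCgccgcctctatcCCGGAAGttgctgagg
Rpl22l1: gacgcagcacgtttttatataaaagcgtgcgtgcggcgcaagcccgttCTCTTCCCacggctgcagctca
Rpl22: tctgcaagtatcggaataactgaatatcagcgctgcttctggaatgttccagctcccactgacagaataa
Rpl23: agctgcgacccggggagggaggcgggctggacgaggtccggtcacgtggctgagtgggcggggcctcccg
Rpl24: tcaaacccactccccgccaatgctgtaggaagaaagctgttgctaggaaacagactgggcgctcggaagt
Rpl9: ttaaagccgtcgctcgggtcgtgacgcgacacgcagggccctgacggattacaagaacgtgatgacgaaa
Rpl3l: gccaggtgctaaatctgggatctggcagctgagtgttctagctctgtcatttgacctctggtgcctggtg
Rpl35 holds a run of 18 letters, Rpl13a of 14, Rps6 of 10, Rps27 of 9, and Rpl38 and Rpl22l1 of 8. In Rps27l the 7 letters in capitals are the end of a run that begins just before the 10-base limit. The windows shown for Rpl22, Rpl23, Rpl24, Rpl9 and Rpl3l hold neither motif as defined. Among named members the starts of Rpl27, Rpl41, Rplp0, Rpl5, Rpl10, Rps4x, Rpsa, Rpl7l1, Rpl6, Rps23 and Rpl36a held no run within the 10-base limit. A run lies farther before the annotated start than that limit in Rpl5 (ctctttctc), Rpl27 (ctcctccctcc) and Rpl7l1 (cctctct). Rpl22 has another annotated start, at chr4:152325681-152325750 (plus), which likewise held a run (ctcctccctttccc) only farther off.

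Promoter entries were found for 54 of the 63 genes, with 65 start sites. A pyrimidine run as defined above was present at 26 of the 65 starts (40.0%), in 26 of the 54 genes, against 12.23% of the 32851 starts of all genes in the table. CCGGAAG, on either strand and anywhere in the 300 bases from 250 before to 50 after the start, was present at 23 of 65 (35.4%), against 8.86%. AAGATGG, the core of the YY1 motif, was at 18.5%, against 6.34%, and GGGCGG, the core of the Sp1 motif, at 61.5%, against 35.66%. TATAAA was at 9.2%, against 13.62%. The last 3 were searched in the same window and on both strands. Motifs that adjoin can share letters, as when a pyrimidine run reaches into CTTCCGG. These matches describe letters in the windows and not bound sites.

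Their signals were among the brightest of the colon. Of the 57 tested genes, 55 were detected on all 8 arrays, 45 lay above the 90th percentile of gene levels and 31 above the 99th. A probe's brightness also depends on its sequence, so the order of levels between genes is not read here. In each colon, 5 to 8 of the 20 brightest probes belonged to ribosomal proteins. The 81 probes carried 5.69%, 5.58%, 5.34% and 5.64% of the summed intensity in the 4 knockout colons, against 5.68%, 5.70%, 5.59% and 5.33% in the 4 wildtype colons. The shares averaged 5.56% ± 0.158 in knockout and 5.57% ± 0.172 in wildtype colons (SD, n = 4 each), so their ranges overlapped nearly completely.

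Read from the brightest tested probe of each gene, no ribosomal protein gene told knockout from wildtype colons by limma's test. None of the 57 passed an adjusted p of 0.05 by limma, where 0.0196% of all genes tested did (2 of 10184), and the smallest adjusted p was 0.504. None had an unadjusted p under 0.05 either, where 11.0% of all genes did in either direction and 6.70% did so with a higher value in knockout. The difference between the groups ran from -0.23 (Rpl22) to 0.52 (Rpl3l) on the log2 scale, and the 95% interval of each of the 57 genes included 0. The values of the groups did not overlap in 2 of 57 genes, where 7.68% of all genes showed no overlap. These counts hold for the brightest probes. Dimmer probes of Rpl38 and Rplp0, described below, did not overlap between the groups.

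The intervals show how precisely the brightest probe of each gene was measured, on a scale where quantile normalization sets values by rank. In 50 of 57 genes (87.7%) the 95% interval of the difference lay within 1.5-fold in either direction, where 54.0% of all genes had an interval that narrow. In 29 genes it lay within 1.25-fold, and in all but Rpl3l within 2-fold. The measured difference itself was under 0.1 in size in 39 genes and under 0.2 in 51. The median SD within a genotype was 0.101 for these genes, against 0.237 for all genes tested. Their median level was also higher, at 14.55, against 8.92. How much of the narrowness comes from the level was not tested. The intervals hold for the probe and not for the gene: dimmer probes of Rpl38 and Rplp0, described below, had intervals that did not include 0, while the bright probes of both genes count among the 50.

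**Figure D1:**
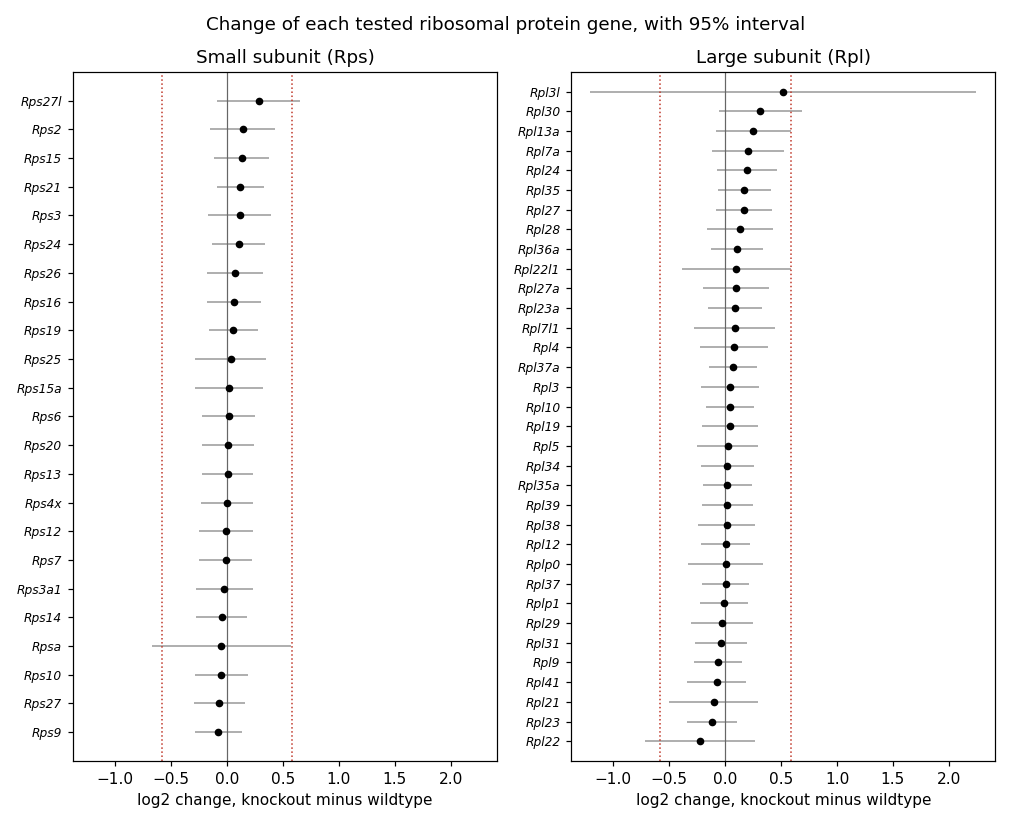
Difference of each tested ribosomal protein gene between knockout and wildtype colons (log2, horizontal axis; points, with 95% intervals from limma as bars; n = 4 per genotype), small subunit on the left and large subunit on the right, sorted by difference. Red dotted lines mark 1.5-fold either way. All 57 intervals cross 0, 50 stay between the dotted lines, and Rpl3l has the widest.

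Of the 57 genes, 41 were measured higher and 16 lower in knockout (71.9% higher, where 49.1% of all genes were). The median difference was 0.023, against -0.005 over all genes. In the small subunit 15 of 23 genes were higher with a median of 0.015, and in the large subunit 26 of 34 with a median of 0.043. The median deviation of the family from each gene's own mean was 0.044, -0.008, 0.010 and 0.025 in the 4 knockout colons, against -0.004, -0.019, 0.014 and -0.061 in the 4 wildtype colons. The lowest of the 8 was wildtype 4, and the other 3 wildtype colons lay within or just below the range of the knockout colons. With cyclic loess in place of quantile normalization 33 of 57 genes were higher (57.9%).

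In the small subunit, Rps6, whose phosphorylation by S6 kinases is a common readout of mTOR signalling, measured 14.04, 13.96, 13.90 and 14.13 in knockout colons, against 13.90, 14.06, 14.03 and 13.98 in wildtype colons. The groups overlapped and differed by 0.02. Rps19, the gene most often mutated in the human red cell aplasia Diamond-Blackfan anaemia, measured 15.12, 15.12, 15.06 and 15.14 in knockout colons, against 15.08, 15.08, 15.08 and 14.96 in wildtype colons, a difference of 0.06 with overlap. In neither gene did the genotypes separate beyond the spread between mice.

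Rps21 and Rps9 were the 2 genes whose groups did not overlap. Rps21 is named here because of that pattern, after its values were seen. It measured 15.23, 15.24, 15.18 and 15.24 in knockout colons, against 15.05, 15.12, 15.11 and 15.14 in wildtype colons, a difference of 0.12 (SE 0.0935, adjusted p = 0.623, limma). Rps9, which helps keep decoding accurate, measured 14.51, 14.52, 14.52 and 14.50 in knockout colons, against 14.62, 14.56, 14.59 and 14.58 in wildtype colons, a difference of -0.08 (SE 0.0922, adjusted p = 0.754, limma). The knockout colons lay above the wildtype colons for Rps21 and below them for Rps9, in each case by less than 0.2. A second probe of Rps9 overlapped between the groups and differed by 0.02.

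Rps20, a small subunit protein and a bright member, measured 15.75, 15.78, 15.57 and 15.83 in knockout colons, against 15.71, 15.71, 15.73 and 15.75 in wildtype colons, with knockout 3 the lowest and knockout 4 the highest of the 8. Rps15a, which was among the dimmest by its probe, measured 7.31, 7.39, 7.83 and 7.55 in knockout colons, against 7.42, 7.48, 7.59 and 7.51 in wildtype colons. The differences were 0.01 and 0.02. Rpsa, the small subunit protein also known as the laminin receptor precursor, was detected in 3 colons of each genotype, with 5.61, 5.88, 5.12 and 5.78 in knockout colons, against 4.89, 6.13, 5.66 and 5.91 in wildtype colons. Its groups overlapped over their whole range, and the difference was -0.05 (SE 0.274). The mean level of this probe was 5.62, at the 3.5th percentile of gene levels, and a further probe of Rpsa was not detected on any array. The difference of Rpsa thus rests on a probe close to the limit of detection.

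In the large subunit, the smallest p-values belonged to Rpl30, Rpl13a, Rpl24, Rpl35 and Rpl27 among the genes measured higher in knockout. Rpl30 measured 12.11, 11.71, 12.34 and 12.45 in knockout colons, against 11.84, 11.93, 11.80 and 11.80 in wildtype colons, a difference of 0.31 (SE 0.164, 95% interval -0.06 to 0.69, adjusted p = 0.504, limma). Knockout 2 was the lowest of all 8 colons and the other 3 knockout colons were the highest. Without knockout 2 the difference was 0.46 with an adjusted p of 0.291 (limma). Rpl13a, which in human monocytic cells also leaves the ribosome to silence inflammatory messages, measured 11.40, 11.22, 11.31 and 11.68 in knockout colons, against 11.23, 11.10, 11.39 and 10.89 in wildtype colons. Its groups overlapped, with knockout 4 the highest and wildtype 4 the lowest, and differed by 0.25 (SE 0.150, adjusted p = 0.543, limma).

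Rpl24, which forms a bridge between the subunits, measured 14.13, 14.27, 14.13 and 14.38 in knockout colons, against 14.09, 14.05, 14.15 and 13.84 in wildtype colons, a difference of 0.19 (SE 0.118). Rpl35, which lies at the exit of the tunnel through which the new chain leaves, measured 15.33, 15.10, 15.14 and 15.20 in knockout colons, against 15.12, 14.95, 15.04 and 14.98 in wildtype colons, a difference of 0.17 (SE 0.105). Rpl27 measured 15.01, 14.77, 15.08 and 15.06 in knockout colons, against 14.88, 14.74, 14.81 and 14.81 in wildtype colons, likewise a difference of 0.17 (SE 0.111). In all 3 genes the groups overlapped at their edges.

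Rpl23, Rpl22, Rpl41 and Rpl9 had the smallest p-values among large subunit genes measured lower in knockout. Rpl23, which can bind the p53 inhibitor Mdm2, measured 15.55, 15.56, 15.45 and 15.58 in knockout colons, against 15.73, 15.69, 15.58 and 15.62 in wildtype colons, so that only knockout 4 reached the lowest wildtype value. The difference was -0.12 (SE 0.0983, adjusted p = 0.647, limma). Rpl41, the smallest ribosomal protein, measured 15.65, 15.80, 15.49 and 15.60 in knockout colons, against 15.67, 15.78, 15.57 and 15.83 in wildtype colons, a difference of -0.08 with overlap. Rpl9 measured 15.43, 15.40, 15.50 and 15.47 in knockout colons, against 15.53, 15.46, 15.56 and 15.50 in wildtype colons, a difference of -0.06 with overlap.

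Rpl5, which with Rpl11 and the 5S RNA forms the particle that binds Mdm2 when ribosome assembly is disturbed, measured 14.90, 14.80, 14.90 and 14.99 in knockout colons, against 14.77, 14.87, 14.73 and 15.12 in wildtype colons. The groups overlapped and differed by 0.02. Rpl11 and Rpl7 were not analysed here. Of the stalk, the flexible arm that recruits translation factors, Rplp0 anchors and Rplp1 and Rplp2 extend it. The brightest probe of Rplp0 measured 9.64, 9.28, 9.57 and 9.85 in knockout colons, against 9.45, 9.48, 9.80 and 9.60 in wildtype colons, a difference of 0.00 (SE 0.148). Rplp1 measured 15.87, 15.83, 15.80 and 15.87 in knockout colons, against 15.87, 15.87, 15.87 and 15.80 in wildtype colons. Its probe was the brightest of the array on 5 of 8 arrays, and quantile normalization gives the brightest probe of each array the same value, so that differences between those 5 colons could not be measured. Rplp2 was not detected on any array and was not tested.

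**Figure D2:**
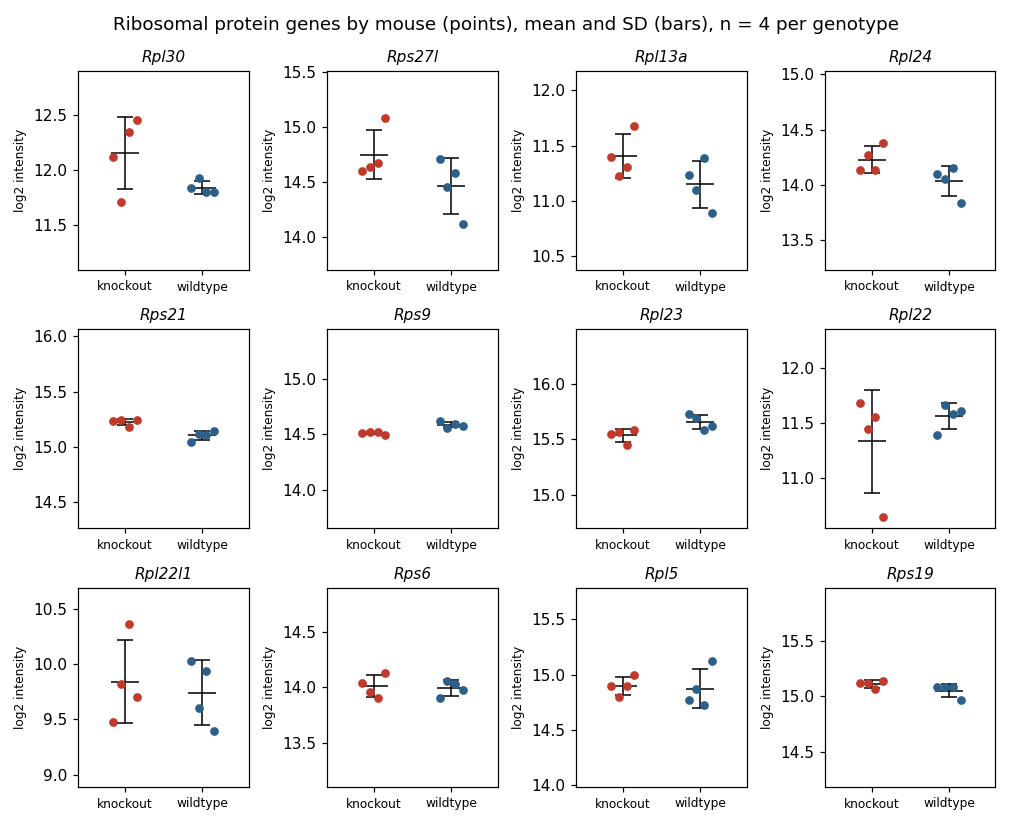
Log2 intensity of 12 ribosomal protein genes in each colon (vertical axes, all of the same span; knockout in red on the left, wildtype in blue on the right; points are mice, bars are mean and SD, n = 4 per genotype). The groups overlap in 10 of the 12 panels; in Rps21 the knockout colons lie above and in Rps9 below the wildtype colons, by less than 0.2.

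Several members are paralogs that replace a parent protein in certain tissues or carry altered roles. Rps27l, which p53 induces in human and mouse cells, measured 14.60, 14.64, 14.68 and 15.08 in knockout colons, against 14.70, 14.45, 14.58 and 14.12 in wildtype colons, a difference of 0.28 (SE 0.165, 95% interval -0.09 to 0.66, adjusted p = 0.537, limma). Knockout 4 was the highest and wildtype 4 the lowest of the 8, and without knockout 4 the difference was 0.17. Its parent Rps27 measured 14.97, 15.02, 14.93 and 14.88 in knockout colons, against 15.02, 15.06, 14.90 and 15.11 in wildtype colons, a difference of -0.07 with overlap.

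Rpl22, which is needed for the development of αβ T cells in mice, measured 11.68, 11.45, 11.55 and 10.65 in knockout colons, against 11.39, 11.66, 11.58 and 11.61 in wildtype colons. Knockout 4 was well below the other 7 colons, the difference between the groups was -0.23 (SE 0.216, adjusted p = 0.693, limma), and without knockout 4 it was 0.00. Its paralog Rpl22l1 measured 9.47, 9.82, 10.36 and 9.70 in knockout colons, against 10.02, 9.60, 9.94 and 9.39 in wildtype colons, a difference of 0.10 (SE 0.216) with overlap. Rpl7l1, a nucleolar relative of Rpl7, measured 10.46, 10.23, 10.15 and 10.83 in knockout colons, against 10.20, 10.32, 10.40 and 10.42 in wildtype colons, a difference of 0.08 with overlap. Rpl39l, the testis-expressed relative of Rpl39, was not detected on any array, and Rpl39 itself differed by 0.02. Rpl10 differed by 0.04 and Rps4x, encoded on the X chromosome, by 0.00, and Rpl10l, Rps4l and Rps4y2 were not analysed here.

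Rpl3l, which takes the place of Rpl3 in skeletal and heart muscle, varied most. It measured 5.53, 8.84, 5.51 and 7.17 in knockout colons, against 5.32, 6.80, 7.30 and 5.56 in wildtype colons, with knockout 2 and 4 and wildtype 2 and 3 well above the other 4 colons. The groups overlapped, and the difference was 0.52 (SE 0.763, 95% interval -1.21 to 2.24, adjusted p = 0.806, limma). Without knockout 2 it was -0.17. The same 4 colons were high in Myh8, a myosin of developing and some adult skeletal muscle, with 5.50, 12.74, 5.71 and 11.75 in knockout colons, against 5.50, 11.33, 11.17 and 5.57 in wildtype colons. Of 18 skeletal muscle markers 14 were tested, 13 of them measured higher in knockout, and the mean of their deviations ran from -1.82 to 2.73 in knockout and from -1.88 to 1.36 in wildtype colons; Myh2, Myh4, Actn3 and Pvalb were not among those tested. With skeletal muscle and skin marker scores as terms in the fit the difference of Rpl3l was 0.26. Rpl3, the form used by other tissues, measured 15.32, 15.28, 15.17 and 15.10 in knockout colons, against 14.99, 15.20, 15.20 and 15.29 in wildtype colons, and did not follow Myh8.

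**Figure D3:**
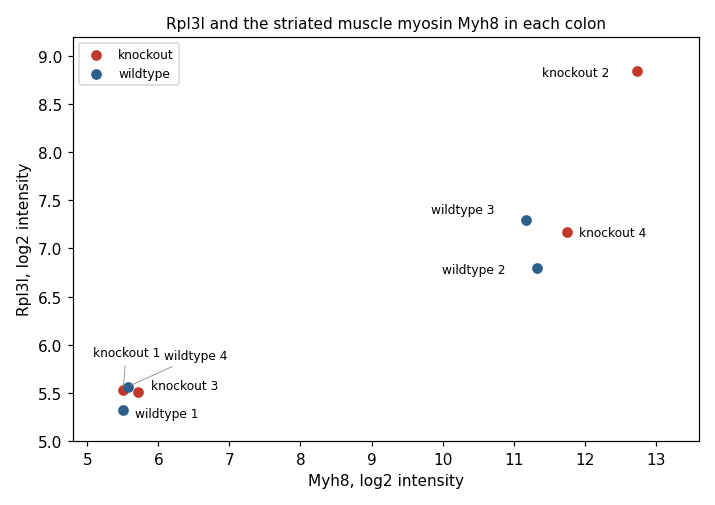
Rpl3l (vertical axis) against the striated muscle myosin Myh8 (horizontal axis) in each colon, both as log2 intensity, knockout in red and wildtype in blue. Both genes are high in the same 4 colons, 2 of each genotype, and low in the other 4.

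For 13 genes more than 1 probe was tested, 28 probes in all. In 5 of them the probes differed in sign: Rpl21, Rpl23, Rpl29, Rpl31 and Rps9. The brightest probe was used for each gene above. Those brightest probes were higher in knockout for 8 of the 13 genes, with a median of 0.014, while 13 of the 15 dimmer probes were higher, with a median of 0.136. Over all 72 tested probes of the family, 3 had an unadjusted p under 0.05 in limma's fit, where 10.8% of all probes tested did. None of the 72 passed an adjusted p of 0.05. All 3 were among the 15 dimmer probes, whose share was thus above that of all probes tested.

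These 3 dimmer probes belonged to Rplp0, Rpl38 and Rps24, of which Rpl38 and Rps24 are named because of these values. The dimmer probe of Rplp0 measured 6.78, 6.87, 6.71 and 7.07 in knockout colons, against 6.49, 6.21, 6.40 and 6.11 in wildtype colons, without overlap, a difference of 0.55 (SE 0.132, 95% interval 0.25 to 0.85, adjusted p = 0.292, limma). The brighter probe of the same gene differed by 0.00, as given above. The dimmer probe of Rplp0 had a low mean level of 6.58, and its difference depended on the background correction. With no background correction it was 0.22, while that of the dimmer probe of Rpl38 was 0.60. The dimmer probe of Rpl38, a protein that mice need for normal patterning of the axial skeleton, measured 10.62, 10.57, 10.62 and 11.22 in knockout colons, against 10.09, 9.98, 10.44 and 9.88 in wildtype colons, without overlap, a difference of 0.66 (SE 0.185, 95% interval 0.24 to 1.08, adjusted p = 0.353, limma). Its brighter probe measured 15.67, 15.53, 15.64 and 15.67 in knockout colons, against 15.58, 15.47, 15.83 and 15.56 in wildtype colons, a difference of 0.01. The dimmer probe of Rps24 measured 9.70, 9.42, 9.73 and 9.99 in knockout colons, against 9.44, 9.31, 9.46 and 9.32 in wildtype colons, with knockout 2 inside the wildtype range, a difference of 0.33 (SE 0.137, adjusted p = 0.449, limma). Its brighter probe differed by 0.11. The transcripts or pseudogenes that each probe detects were not analysed here in a family with many processed pseudogenes.

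For Rpl29 the dimmer probe differed by 0.26 and the brightest by -0.03, for Rpl31 by 0.18 and -0.04, and for Rpl21 by 0.14 and -0.10. The 4 probes of Rpl23, from bright to dim, differed by -0.12, -0.08, 0.06 and -0.23. No probe of these genes had an adjusted p under 0.05 in limma's fit.

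**Figure D4:**
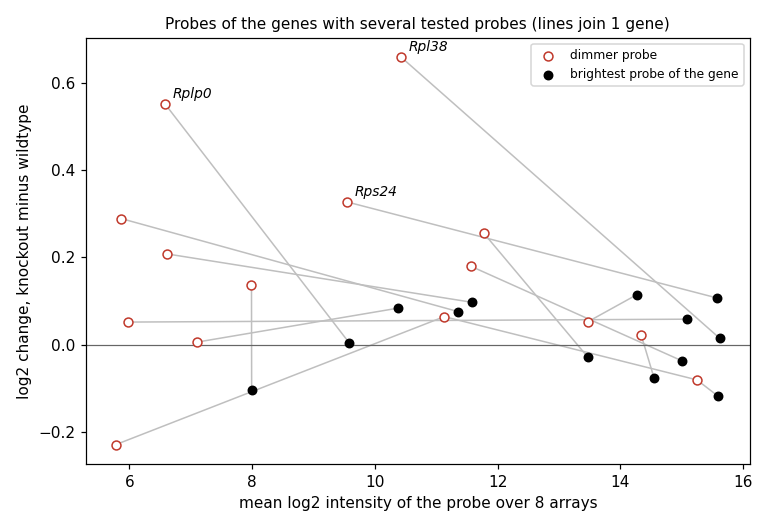
Difference between knockout and wildtype colons (log2, vertical axis) against mean log2 intensity over the 8 arrays (horizontal axis) for the 28 probes of the 13 genes with several tested probes; filled points are each gene's brightest probe, open red points its dimmer probes, and lines join the probes of 1 gene. Of the dimmer probes 13 of 15 lie above 0, and those of Rpl38 and Rplp0 lie farthest from their brighter partners.

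The 6 genes on the array that were not tested were Rpl6, Rpl14, Rpl17, Rpl39l, Rplp2 and Rps23. Rpl14 was detected on 2 arrays and the other 5 on none. Since all but Rpl39l encode proteins of every cytosolic ribosome, these probes gave no measurement of their genes in the colon.

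The genes that build ribosomes were set beside the genes of the finished particle. Of 71 listed genes of ribosome biogenesis and RNA polymerase I, 53 were tested: 47 were measured higher and 6 lower in knockout, with a median of 0.206. None passed an adjusted p of 0.05; 13 had an unadjusted p under 0.05 (24.5%, where 11.0% of all genes did), all of them higher in knockout. Ppan, a nucleolar factor of large subunit assembly, measured 7.19, 7.14, 7.23 and 7.55 in knockout colons, against 6.56, 6.71, 6.71 and 6.75 in wildtype colons, without overlap, a difference of 0.60 (SE 0.123, adjusted p = 0.207, limma). Grwd1, a chaperone of Rpl3, measured 8.78, 8.86, 8.98 and 9.01 in knockout colons, against 8.20, 7.95, 8.59 and 8.03 in wildtype colons, a difference of 0.72 (SE 0.155, adjusted p = 0.223, limma). Noc3l, another large subunit assembly factor, measured 8.06, 7.97, 8.12 and 8.43 in knockout colons, against 7.61, 7.80, 7.78 and 7.56 in wildtype colons, a difference of 0.46 (SE 0.132, adjusted p = 0.359, limma).

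The mean deviation of the biogenesis list was 0.07, -0.01, 0.10 and 0.26 in knockout colons, against -0.11, -0.14, -0.04 and -0.13 in wildtype colons, with knockout 4 the highest. Each knockout colon lay above each wildtype colon. For the ribosomal proteins the groups overlapped, in the median deviation given above and in the mean deviations of the small and large subunit genes. The lists also differed in brightness, with a median level of 9.58 for biogenesis and 14.55 for the ribosomal proteins. Among dimmer ribosomal protein probes 13 of 15 were higher in knockout. The difference between the lists was not tested, and the part of brightness in it was not tested either. Without knockout 4 the count of 13 was 7 and the median 0.142, without wildtype 1 the count was 5 and without wildtype 4 it was 8. With the array's position on the chip as a term the count was 1, 31 of 53 genes were higher and the median was 0.037. All wildtype arrays lay in the first 4 positions and all knockout arrays in the last 4, so position and genotype can hardly be told apart.

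Markers of other cells and of cell division were compared between the same colons. Of 12 proliferation markers 8 were tested and all 8 were higher in knockout (median 0.84, none with an adjusted p under 0.05 in limma's fit). An unadjusted p under 0.05 was met by 7 of them (87.5%). Of all genes, 11.0% met it in either direction and 6.70% with a higher value in knockout. The mean deviation of the 8 markers was 0.03 to 0.77 in knockout, against -0.70 to -0.03 in wildtype colons. For all lists in this paragraph too, chip position and genotype can hardly be told apart. All 11 smooth muscle markers were lower, with a median of -0.49, and all 12 tested markers of skin and stratified epithelium were lower, with a median of -0.85. All 5 tested T and NK cell markers were higher, with a median of 0.36, and 4 of 5 B and plasma cell markers, with a median of 0.16. All 4 tested monocyte and macrophage markers were higher, with a median of 0.35 and mean deviations of -0.03 to 0.43 in knockout, against -0.33 to -0.07 in wildtype colons, without overlap. Neural markers were higher in 1 of 3, with a median of -0.36, and colonic epithelial markers in 4 of 12, with a median of -0.08. The mean deviation of the smooth muscle markers was -0.59 to 0.13 in knockout, against 0.15 to 0.40 in wildtype colons. For the skin, T and NK cell, B and plasma cell, neural and colonic epithelial lists the mean deviations overlapped between the genotypes. None of the 12 skin markers had an unadjusted p under 0.05 in limma's fit. The part of these cells in the values above was not tested, and in whole organs fewer cells of a type and less RNA per cell cannot be told apart.

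The mitochondrial ribosome, which translates the messages of the mitochondrial genome with its own set of proteins, had 70 of 76 genes tested. Of these 55 were measured higher and 15 lower in knockout, with a median of 0.114, and 4 had an unadjusted p under 0.05 (5.71%, where 11.0% of all genes did), all higher, with none called. Mrps27, of the small mitochondrial subunit, measured 9.27, 8.72, 8.93 and 8.91 in knockout colons, against 8.46, 8.57, 8.32 and 8.12 in wildtype colons, without overlap, a difference of 0.59 (SE 0.153, adjusted p = 0.336, limma). Of 5 tested genes for cytosolic ribosomal proteins under other names and for ribosome-bound factors, Fau, whose product is cleaved to give a small subunit protein, differed by -0.14, Btf3, of the nascent chain complex, by 0.12, and Rpl36al, a paralog of Rpl36a, by 0.13, and none had an unadjusted p under 0.05.

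**Figure D5:**
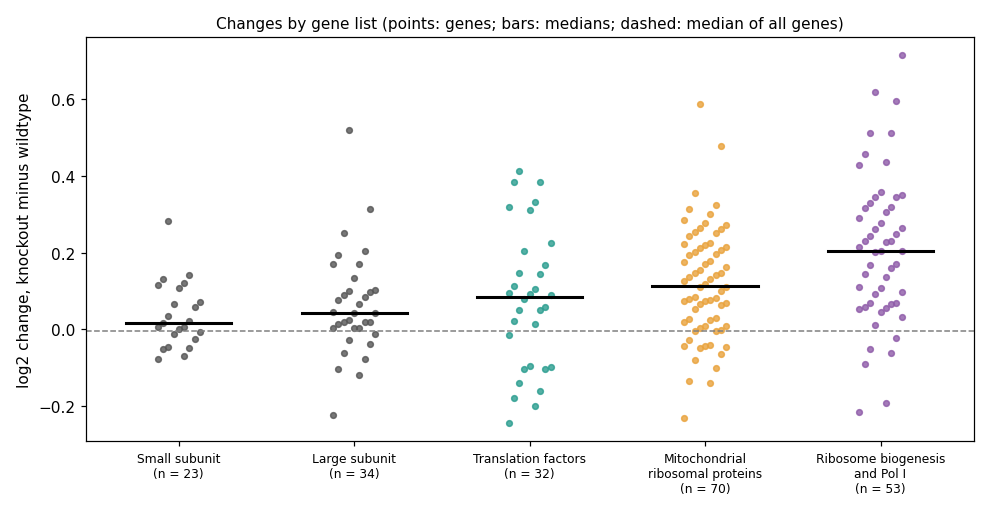
Difference between knockout and wildtype colons (log2, vertical axis) for each tested gene of the small and large cytosolic subunits, the translation factors, the mitochondrial ribosomal proteins and the ribosome biogenesis list (points; black bars are medians; the dashed line is the median of all genes, -0.005). The cytosolic subunits lie close to 0 with medians of 0.015 and 0.043, and the biogenesis list has a median of 0.206.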

How the data were processed

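Whole-colon RNA of 8 mice was hybridised to 1 Illumina beadchip, and the submitters' processing notes name GenomeStudio. Per the file headers, the deposited raw table holds intensity (average signal) for 25697 probes per array. Beside it the deposited table holds detection p-values. The authors' processed intensity table matched a quantile normalization of the raw values to within 0.0278 (log2) and was used as an alternative. Gene symbols came from the platform annotation (23978 with 1 symbol, 0 with several, 1719 with none), and all 63 ribosomal protein genes matched a GRCm38.p6 gene table with 0 symbols changed. With limma 3.58.1 in R 4.3.3, neqc corrected background from the detection p-values, added an offset of 16, quantile normalized and took log2. The 14754 probes detected at p under 0.05 by 4 or more of 8 arrays were tested. Genotype was the only term in lmFit and eBayes, tests were two-sided, and p-values were adjusted by Benjamini and Hochberg over those 14754. The brightest tested probe by mean stood for its gene. The fit was tested on simulated data.

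The genes, the companion and marker lists and the alternatives were chosen with earlier results of these data known. Genes are named by a rule: the 6 smallest p-values each way, the 4 widest ranges, the 3 highest and 3 lowest levels, the stalk proteins and Rpsa, Rps6, Rps19, Rpl5 and Rpl11, paralogs beside their parents, genes whose probes differ in sign, and up to 3 genes with the smallest p in each companion list. Exceptions are stated where they occur.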

Additional observations from a re-analysis of the deposited data

Results flagged for a closer look

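In 5 of 66 groups of 4 colons examined (each named gene, and the dimmer probes of Rpl38 and Rplp0, in each genotype), 1 colon stood apart from the other 3 by Dixon's criterion, which chance meets in about 1 in 20 groups of untied values. Rps27l was 15.08 in knockout 4, against 14.60 to 14.68 in the other knockout colons, and the dimmer probe of Rpl38 was 11.22 in knockout 4, against 10.57 to 10.62. Rps21 was 15.18 in knockout 3, against 15.23 to 15.24. Rplp1 was 15.80 in wildtype 4, against 15.87 in the other wildtype colons, and Rps19 was 14.96 in wildtype 4, against 15.08. The other 3 wildtype values of Rplp1, and those of Rps19, are identical because the probe held the same rank on those arrays and quantile normalization gives equal ranks equal values. With 3 tied values any different value in the remaining colon meets the criterion, so these 2 carry no weight and the chance rate does not apply to them.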

How the results depend on the processing

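No ribosomal protein gene passed an adjusted p of 0.05 under any alternative run, and of 668 comparisons of 32 named changes with an alternative 598 kept their direction. The 70 reversals were all in changes that did not pass the test. Quantile normalization gives equal ranks equal values at every level, and how far this limits what bright probes can resolve was not tested. The cause of each shift was not tested.

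Of all genes, 0 were called with no background correction, the authors' processed table, the strict detection filter (p under 0.01), array position, sex, or muscle and skin scores as terms, and 1 with a trended and robust prior or the mean of a gene's probes; leaving out a mouse gave 0 to 10. The labels do not say whether replicate numbers pair the colons. Same-number correlations were 0.136, 0.210, -0.178 and -0.038. The same-numbered wildtype colon was the best match for knockout 1 and 2 and not for knockout 3 and 4, so pairing is not settled. With the replicate block 0 genes were called and the family's median stayed 0.023. Ribosomal protein genes with an unadjusted p under 0.05 numbered 1 (Rpl35) with the trended and robust prior, 2 (Rpl38 and Rplp0) with the mean of probes and 0 to 1 on leaving out a mouse (Rpl30, without knockout 2). The family's median was 0.054 with median scaling (all genes 0.026), 0.059 with array position, 0.053 with sex and 0.012 to 0.050 on leaving out a mouse. The biogenesis median was 0.037 with array position and 0.142 to 0.284 on leaving out a mouse.

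Signs reversed with median scaling in Rps20 (-0.031), Rpl39 (-0.018) and Rpl29 (0.0045). With cyclic loess they did in Rps20 (-0.058), Rplp0 (-0.0093), Rpl3 (-0.0084), Rpl10 (-0.0015), Rpl39 (-0.049) and Rps4x (-0.027). With array position they did in Rpl22 (0.26), Rpl3l (-0.049), Rplp1 (0.038), Rps20 (-0.026), Rps15a (-0.29), Rplp0 (-0.33), Rps6 (-0.067), Rpl5 (-0.24), Rpl7l1 (-0.27) and Rpl21 (0.34). Array weights reversed Rps15a (-0.026), Rplp0 (-0.0058), Rps6 (-0.015), Rps4x (-0.011) and Rpl29 (0.033). The mean of probes reversed Rpl21 (0.016), Rpl29 (0.11) and Rpl31 (0.071). Sex reversed Rpsa (0.21), Rpl22l1 (-0.12), Rps15a (-0.022), Rps4x (-0.033) and Rpl29 (0.081), and the muscle and skin scores Rpsa (0.085), Rpl22l1 (-0.061), Rps4x (-0.044) and Rpl29 (0.033).

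Leaving out a mouse gave changes of -0.17 to 0.94 for Rpl3l, -0.34 to 0.0018 for Rpl22, -0.30 to 0.11 for Rpsa, -0.074 to 0.22 for Rpl22l1, -0.20 to 0.038 for Rpl21, -0.054 to 0.17 for Rpl7l1, -0.086 to 0.11 for Rplp0, -0.081 to 0.093 for Rps15a, -0.025 to 0.11 for Rpl5, -0.025 to 0.061 for Rps20, -0.048 to 0.038 for Rps4x, -0.030 to 0.0031 for Rplp1, -0.0056 to 0.060 for Rpl39, -0.088 to 0.037 for Rpl29, -0.026 to 0.051 for Rps6, -0.016 to 0.085 for Rpl3 and -0.086 to 0.0086 for Rpl31.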

Other observations

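Of 42 listed translation factors, 32 were tested; 22 were measured higher and 10 lower in knockout, with a median of 0.085, and 2 had an unadjusted p under 0.05 (6.25%, where 11.0% of all genes did), both higher. Eif4e, which binds the cap of messenger RNA, measured 7.78, 7.63, 7.84 and 7.54 in knockout colons, against 7.21, 7.21, 7.41 and 7.31 in wildtype colons, without overlap, a difference of 0.41 (SE 0.115, adjusted p = 0.353, limma). Eif4g2, a relative of the scaffold Eif4g1, measured 10.14 to 10.39 in knockout colons, against 9.58 to 10.03 in wildtype colons, without overlap, a difference of 0.38 (SE 0.135, adjusted p = 0.397, limma). Eif5a, the factor that carries hypusine, differed by 0.32 (SE 0.158, adjusted p = 0.484, limma). No translation factor passed an adjusted p of 0.05.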
